A study of Homo sapiens with 8 samples.

Results

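The 60 genes described here copy the genome, let the cell enter S phase or divide it in mitosis. They were taken by gene symbol (GENCODE 29) from the 58780 genes of each deposited table, and fall into 17 genes for origin licensing and the replicative helicase, 11 for the replication fork and nucleotide supply, 12 for G1/S control and 20 for mitosis. Levels came from RNA-seq of H1, an established human embryonic stem cell line, carried through directed differentiation. Of its 4 stages, hESC is the undifferentiated line, hDE definitive endoderm, hAFE the endoderm of an anterior foregut and hPFE that of a pharyngeal foregut, with 2 libraries each and no engineered allele named in the labels. The hESC and hDE libraries are marked in the labels as re-analysed and the hAFE and hPFE libraries are not, so between these pairs of stages differentiation and the source of the libraries cannot be told apart. Separate cultures are not named for the libraries of one stage; the p-values below therefore cover only how far the libraries differ, and that spread may be technical.

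Before S phase, ORC, CDC6 and CDT1 load the MCM2-7 ring onto origins, and geminin (GMNN) holds CDT1 back once origins have fired. CDC45 and the GINS complex turn the ring into the active helicase, PCNA clamps the polymerases to the template, and cyclin D-CDK4/6 and cyclin E-CDK2 release the E2F factors that switch many of these genes on. Mitotic genes are switched on later in the cycle, largely through the CCAAT box and the cell cycle homology region (CHR) of their promoters. Pluripotent stem cells are known for a short G1 phase. In bulk RNA, fewer cells in a phase and less RNA per cell cannot be told apart.

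The libraries held 12687161 to 17802900 counts, of which the 60 genes took 0.36% to 0.736%. All 60 passed the filter on low counts. The summed level of 10 definitive endoderm markers was 12236 and 13225 CPM (counts scaled to a common library size) in the hDE libraries and at most 81.6 CPM elsewhere, and 10 pluripotency markers summed to 4539 and 5326 CPM in hESC against 161 and 124 CPM in hPFE. The 10 pharyngeal markers summed to 158 and 90.6 CPM in hPFE and to 78.0 and 159 CPM in hAFE, so they did not separate those stages. The hPFE libraries also held mesenchymal markers, whose 10 genes summed to 1533 and 269 CPM against at most 100.1 CPM in the other stages. Amnion and trophoblast markers (10 genes) summed to 26.5 and 125 CPM in hAFE and 96.9 and 214 in hPFE, against at most 12.6 before, and neural markers to 75.7 to 234 CPM over all libraries. The part of these cells in the values below was not tested. The hAFE and hPFE libraries were less alike within a stage than the others: the log2 difference between the 2 libraries had an SD over genes of 0.59 in hAFE and 0.56 in hPFE, and of 0.31 in hESC and 0.27 in hDE.

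The roles differed in the short sequences of their promoters, which are shown because they set the replication genes apart from the mitotic genes independently of expression. RefSeq windows (GRCh38.p14, 250 bases before to 50 after the start) were found for 51 of the 60 genes, all but MCM4, MCM5, GINS4, CCND1, CCND2, CCNE2, CDK2, AURKA and UBE2C. Both strands were searched for 4 spellings of the E2F site (TTTCCCGC, TTTGGCGC, TTTCGCGC and TTTGCCGC), for the CHR (TTTGAA) and for the CCAAT box (CCAAT). Matches of different motifs or spellings may overlap.

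The 4 stretches below come from S phase and G1/S genes, printed 5′ to 3′ on the gene's strand with motif matches in capitals: MCM6, a subunit of the helicase ring, chr2:135876484-135876603 (minus strand); POLA1, the catalytic subunit of DNA polymerase alpha, chrX:24693768-24693887 (plus strand); PCNA, chr20:5126627-5126746 (minus strand); and E2F1, chr20:33686405-33686524 (minus strand).
MCM6: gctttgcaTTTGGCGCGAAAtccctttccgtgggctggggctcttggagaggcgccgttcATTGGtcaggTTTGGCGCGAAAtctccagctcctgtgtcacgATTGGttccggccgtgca
POLA1: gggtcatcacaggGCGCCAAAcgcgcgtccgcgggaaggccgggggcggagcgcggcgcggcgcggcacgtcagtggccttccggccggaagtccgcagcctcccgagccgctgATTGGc
PCNA: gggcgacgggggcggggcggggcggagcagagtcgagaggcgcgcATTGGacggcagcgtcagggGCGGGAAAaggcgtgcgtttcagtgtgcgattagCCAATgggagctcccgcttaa
E2F1: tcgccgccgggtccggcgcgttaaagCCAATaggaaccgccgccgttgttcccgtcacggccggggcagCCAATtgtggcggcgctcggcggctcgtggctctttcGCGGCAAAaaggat
In the MCM6 stretch the first and the third runs of capitals are each 2 overlapping E2F spellings, one per strand, and the other runs are CCAAT boxes. POLA1, PCNA and E2F1 show 1 E2F spelling each, beside CCAAT boxes. E2F1 has a second one, TTTGGCGC, which begins 20 bases before the start, at the last base of the printed stretch.

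The 4 stretches from mitotic genes are those of MKI67, which encodes the proliferation marker Ki-67, chr10:128126424-128126543 (minus strand); KIF11, a spindle motor, chr10:92593010-92593129 (plus strand); ESPL1, the protease separase, chr12:53268179-53268298 (plus strand); and CDC20, an activator of the anaphase-promoting complex, chr1:43358835-43358954 (plus strand).
MKI67: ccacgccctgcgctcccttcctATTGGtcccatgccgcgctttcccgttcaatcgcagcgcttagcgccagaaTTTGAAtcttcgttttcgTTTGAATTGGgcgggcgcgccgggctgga
KIF11: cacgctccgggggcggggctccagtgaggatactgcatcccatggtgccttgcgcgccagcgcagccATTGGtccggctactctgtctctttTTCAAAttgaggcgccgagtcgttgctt
ESPL1: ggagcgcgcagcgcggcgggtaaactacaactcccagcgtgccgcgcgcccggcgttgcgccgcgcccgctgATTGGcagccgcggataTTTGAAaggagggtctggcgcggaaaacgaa
CDC20: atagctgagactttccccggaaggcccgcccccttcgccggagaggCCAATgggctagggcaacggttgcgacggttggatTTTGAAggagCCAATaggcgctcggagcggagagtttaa
Each holds TTTGAA, or TTCAAA on the other strand, close to CCAAT or its reverse ATTGG, and none holds an E2F spelling. In MKI67 the second TTTGAA overlaps an ATTGG.

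Of 35116 windows, only the first listed for each gene symbol was used, which left 27305 promoters. For 41 of the 51 member windows, the last 40 bases lay in a GENCODE 29 transcript of the gene. E2F spellings were found in 9 of 14 origin genes (64.3%), 6 of 11 fork genes (54.5%), 3 of 8 G1/S genes (37.5%) and 2 of 18 mitotic genes (11.1%), against 3.33% of all 27305 promoters. The CHR was found in 12 of 18 mitotic genes (66.7%), in 0 of 14 origin genes, in 1 of 11 fork genes and in 1 of 8 G1/S genes, against 15.4% of all promoters. CCAAT was common in both large groups, with 16 of 18 mitotic genes (88.9%) and 10 of 14 origin genes (71.4%) against 35.7% of all promoters. A CHR together with a CCAAT box stood in 11 of 18 mitotic windows and in 6.08% of all 27305 promoters. Among the 11766 promoters of genes tested, the shares were 5.10% for E2F, 9.94% for the CHR and 36.6% for CCAAT. In the 150 bases before the start alone, the E2F count fell to 4 of 14 origin genes (28.6%) and 0 of 18 mitotic genes. It stayed at 6 of 11 fork genes and 3 of 8 G1/S genes. In that window E2F spellings stood in 1.82% of all promoters and 2.79% of those of genes tested. These are counts of letters, not of bound sites.

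**Figure D1:**
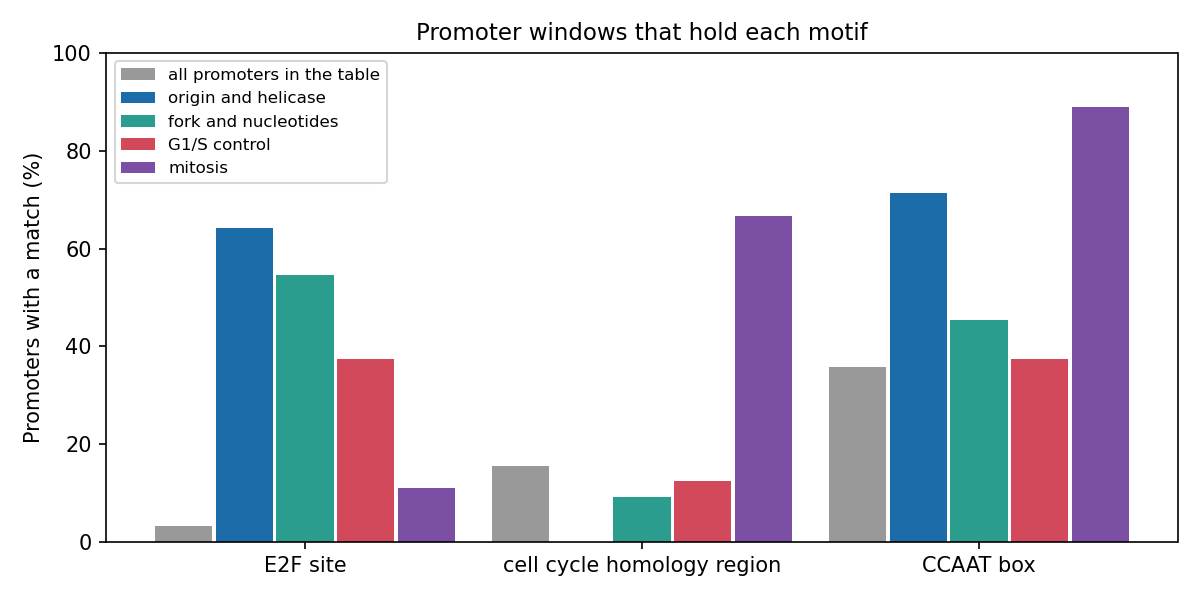
Percentage of promoter windows with at least 1 match to each motif (vertical axis, percent) for all promoters (1 window per gene symbol) and for each role. E2F spellings stand in 64.3% of origin genes and 11.1% of mitotic genes, the CHR in 0 of 14 origin genes and 66.7% of mitotic genes.

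Most replication genes fell in hDE and many rose again in hAFE. Between hAFE and hPFE, replication genes were called only lower and G1/S genes only higher. From hESC to hDE, 32 of 60 genes fell and 4 rose, with a median log2 fold change of -0.64, while 21.6% of the 17446 genes tested fell, 20.3% rose and their median was -0.01. Origin genes had 14 of 17 lower and 1 higher (median -1.07), fork genes 7 of 11 lower and 1 higher (-0.71), G1/S genes 4 of 12 lower and 2 higher (-0.12), and mitotic genes 7 of 20 lower and 0 higher (-0.42). From hDE to hAFE, 25 of 60 rose and 2 fell (median 0.49), against 15.0% of all genes rising and 15.2% falling (median 0.01). Those that rose were 11 origin, 6 fork, 6 G1/S and 2 mitotic genes, and both that fell, CDK6 and CDKN1B, belong to G1/S control.

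From hAFE to hPFE, 15 of 60 fell and 4 rose (median -0.36), against 2.71% of all genes falling and 4.77% rising (median -0.03). All 15 that fell were replication genes, 11 of origins and 4 of the fork, all 4 that rose were G1/S genes, and none of the 20 mitotic genes passed the test. This comparison rests on few libraries: the fit to its own 4 libraries called 0 lower and 1 higher, and leaving out hESC replicate 1, hESC replicate 2, hDE replicate 1, hDE replicate 2 or hAFE replicate 1 left 5, 5, 5, 3 or 7 lower. On deposited TPM (length-corrected transcript shares, not rescaled between libraries), the split was 2 higher and 0 lower, against 4.16% and 0.49% of all genes. The median of the 60 was then -0.10, against 0.14 of all genes. In the fit to the 4 libraries, calls fell over all genes too, to 0.29% higher and 0.038% lower. There the median of the 60 was -0.32. Without the libraries named above in turn, that median was -0.36, -0.35, -0.37, -0.33 and -0.30. Across the whole course, hPFE against hESC, 32 of 60 were lower and 8 higher (median -0.54), against 23.3% and 21.6% of all genes (median 0.02). On TPM this split turned to 4 lower and 12 higher, as the median of all genes moved to 0.36, with 30.6% of all genes higher and 8.25% lower. Without hESC replicate 1 or 2, fewer genes were called lower, among the 60 and over all genes. The median of the 60 was then -0.66 or -0.46. The TPM scale moved the background in the earlier steps too, to 5.63% higher and 25.4% lower in hDE vs hESC and to 37.0% higher and 4.69% lower in hAFE vs hDE, where the members' splits were 2 higher and 40 lower, and 48 higher and 0 lower. The 4 comparisons share libraries, so their counts are not independent.

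**Figure D2:**
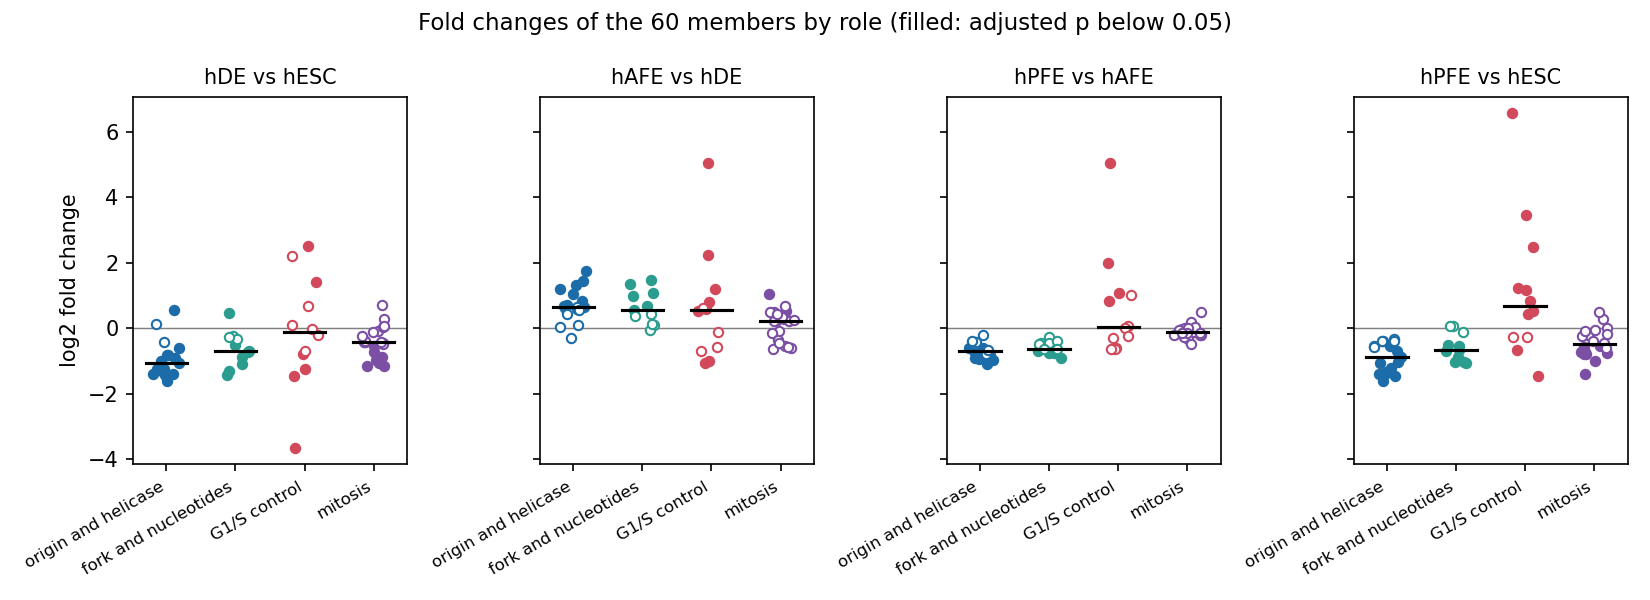
Log2 fold change of each of the 60 genes (vertical axis) by role in the 4 comparisons, filled where the adjusted p was below 0.05, with a line at the median; origin genes sit below 0 in hDE vs hESC (median -1.07), above it in hAFE vs hDE (0.66) and below it in hPFE vs hAFE (-0.69), while G1/S genes spread most widely.

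Within the helicase ring, 5 of the 6 subunits fell in hDE, rose in hAFE and fell in hPFE. MCM2 (chr3:127598223-127622436, hg38) stood at 169 and 173 CPM in hESC, 63.0 and 67.9 in hDE, 229 and 210.5 in hAFE, and 123 and 109.5 in hPFE. No 2 stages overlapped, and hAFE was the highest. It fell from hESC to hDE by 1.39 on the log2 scale (SE 0.13, adjusted p = 0.000244), rose by 1.75 into hAFE (SE 0.13, adjusted p = 0.000125) and fell by 0.92 into hPFE (SE 0.13, adjusted p = 0.00858).

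MCM7 (chr7:100092728-100101940) likewise peaked in hAFE, with 287 and 333 CPM in hESC, 149 and 159 in hDE, 418 and 355 in hAFE, and 229.7 and 196 in hPFE. MCM3 (chr6:52264009-52284881) was highest in hESC, at 439 and 487 CPM, against 173 and 177 in hDE, 284 and 275 in hAFE, and 183 and 152 in hPFE. On CPM, its hPFE libraries straddled those of hDE. MCM4 followed the same order of hESC and hAFE, with 421 and 443, 134 and 147, 304 and 279, and 178 and 197 CPM in hESC, hDE, hAFE and hPFE. MCM5 (chr22:35400063-35425430) was lowest in hPFE on CPM, with 184 and 211, 77.9 and 81.6, 126 and 126, and 68.2 and 60.6 CPM in the same order. On TPM it was lowest in hDE, at 7.09 and 7.79 against 14.0 and 21.4 in hPFE. All of these 5 subunits passed the test in all 4 comparisons, in the directions given for MCM2, and were below hESC in hPFE by log2 fold changes from -1.62 (MCM5) to -0.54 (MCM7). On TPM, MCM2 and MCM7 turned to 0.03 and 0.12 in that last comparison.

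MCM6 (chr2:135839626-135876426), whose promoter is printed above, moved the other way in hDE. It stood at 90.0 and 96.3 CPM in hESC, 134 and 141 in hDE, 96.5 and 126 in hAFE, and 63.3 and 77.5 in hPFE. On CPM, hDE was thus the highest stage, with libraries above all others. On TPM it was not, with 12.3 and 13.3 in hDE, 16.5 and 21.1 in hAFE, and 10.5 and 19.4 in hPFE. The rise from hESC to hDE was 0.56 (SE 0.17, adjusted p = 0.03). It was lost without any one of the 4 hESC and hDE libraries and on TPM, where the means were 12.7 in hESC and 12.8 in hDE; it was called in the other 13 of 18 alternatives. Per length, in TPM, MCM6 made up 4.59% and 4.45% of the summed MCM2-7 transcripts in hESC, 14.2% and 14.5% in hDE, 4.98% and 7.08% in hAFE, and 5.51% and 7.26% in hPFE. The hDE libraries thus held the most even set, with the most abundant subunit 3.46 and 3.66 times the least abundant, against 3.93 to 6.78 times in the other 6 libraries. MCM6 was the least abundant subunit in those 6 libraries and MCM2 in hDE.

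**Figure D3:**
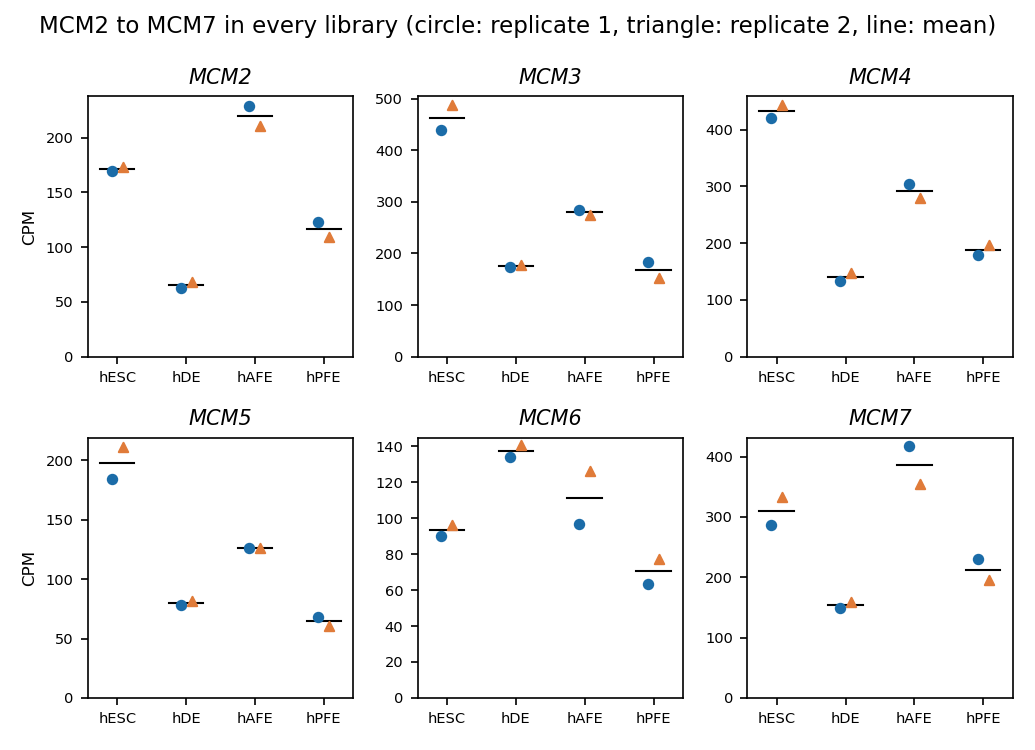
Level of each MCM2-7 gene in CPM (vertical axes from 0, each with its own range) in the 8 libraries, with a line at the stage mean. MCM2, MCM3, MCM4, MCM5 and MCM7 are lower in hDE than in hESC and hAFE. On this scale, but not on TPM, MCM6 is highest in hDE, at 134 and 141 CPM.

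Among the loading factors, ORC1, the origin recognition subunit that rises before S phase (chr1:52372829-52404459), stood at 64.9 and 71.7 CPM in hESC, 26.2 and 24.6 in hDE, 60.1 and 56.5 in hAFE, and 25.9 and 28.8 in hPFE. On CPM it was low in hDE and hPFE, whose libraries overlapped, and high in the other stages. Its TPM in hPFE (5.01 and 8.19) lay between those in hDE (2.71 and 2.65) and hESC (9.67 and 11.4). Its changes were -1.43, 1.20 and -1.09 in successive steps, with adjusted p of 0.000241, 0.000688 and 0.00548. CDC6 (chr17:40287633-40304657), the loader itself, had another course on counts, at 117 and 135, 86.3 and 80.7, 88.1 and 81.5, and 44.6 and 51.1 CPM. Its hDE and hAFE libraries overlapped on CPM (log2 fold change 0.02, SE 0.14, adjusted p = 0.921). It fell in the steps before and after, by 0.59 and 0.83 (SE 0.14 each). Its TPM were 11.3 and 11.2 in hDE and 23.1 and 20.3 in hAFE. CDC6 was called higher in hAFE on that scale, as were 37.0% of all genes. GMNN (chr6:24774931-24786099) was at 58.8 and 77.3 CPM in hESC, 28.8 and 28.6 in hDE, 47.4 and 39.05 in hAFE, and 34.7 and 31.0 in hPFE. CDT1, the factor it restrains, was at 25.4 and 24.1 CPM in hESC and 10.9 and 10.1 in hDE, and both genes fell in that step, GMNN by 1.25 and CDT1 by 1.23.

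The helicase activators CDC45, GINS1, GINS2 and GINS4 all fell from hESC to hDE, by 0.81 to 1.09, and GINS3 did not pass in any comparison. GINS2 (chr16:85676198-85690073) was at 55.0 and 59.1 CPM in hESC, 26.3 and 27.2 in hDE, 90.4 and 56.2 in hAFE, and 35.0 and 41.2 in hPFE. Its hAFE libraries were far apart, but both were above those of hDE (log2 fold change 1.45, SE 0.22, adjusted p = 0.00267). ORC6 stood apart within the group, with 48.7 and 54.9, 57.4 and 56.5, 65.6 and 55.0, and 38.8 and 40.1 CPM, and passed only in the comparisons with hPFE, at -0.61 against hAFE and -0.39 against hESC; these calls were lost in 12 and 16 of 18 alternatives, and the second turned to 0.23 on TPM. ORC6 was also called higher in hAFE than in hDE on TPM. MCM10, which helps to start the fork, followed ORC1, at -0.83, 0.82 and -0.69 in successive steps. Of the 15 origin calls in hDE vs hESC, 11 were kept in all 18 alternatives, as were 5 of 11 in hAFE vs hDE, 0 of 11 in hPFE vs hAFE and 2 of 13 in hPFE vs hESC (MCM3 and MCM5).

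At the fork, the clamp, the ligase and the large reductase subunit dropped in hDE and came back in hAFE. PCNA (chr20:5114953-5126626) was at 188 and 230.3 CPM in hESC, 87.0 and 80.8 in hDE, 174 and 180.0 in hAFE, and 131 and 160.5 in hPFE. Both hDE libraries were below all others. LIG1, which joins Okazaki fragments (chr19:48115445-48170603), was at 59.7 and 62.2, 21.1 and 24.3, 61.9 and 64.3, and 43.6 and 31.5 CPM in the same order. RRM1, the large subunit of ribonucleotide reductase (chr11:4094707-4138876), was at 177 and 192, 84.3 and 90.2, 246 and 198, and 174 and 166 CPM. These 3 genes fell into hDE by 1.32, 1.43 and 1.08 and rose into hAFE by 1.08, 1.47 and 1.35, and these 6 calls were kept in all 18 alternatives. Both hPFE libraries of RRM1 lay just below those of hESC, a difference that did not pass (-0.12, SE 0.14, adjusted p = 0.516), while PCNA and LIG1 were lower on counts (-0.52 and -0.70) and turned to 0.08 and 0.24 on TPM.

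POLA1, the polymerase subunit whose promoter is printed above (chrX:24693919-24996986), had the same dip, at 86.3 and 96.6 CPM in hESC, 47.4 and 51.1 in hDE, 79.7 and 79.6 in hAFE, and 47.9 and 50.7 in hPFE. It fell into hDE by 0.89 and rose into hAFE by 0.69, and the clamp loader subunit RFC3 fell by 0.71 and rose by 0.55. On counts, FEN1, RRM2 and POLE did not follow that course. On TPM these genes were called higher in hAFE than in hDE, as were 37.0% of all genes. FEN1, the flap nuclease (chr11:61792637-61797244), was at 67.5 and 82.0 CPM in hESC, 59.1 and 68.1 in hDE and 63.3 and 73.9 in hAFE, which all overlapped. In hPFE it was at 37.7 and 35.6 CPM, below every other library. On TPM the hDE libraries (9.98 and 11.7) overlapped those of hPFE (10.7 and 16.1). Both hDE libraries were then below hESC (15.8 and 19.5) and hAFE (19.3 and 20.5). On counts, FEN1 fell from hAFE to hPFE by 0.90 (SE 0.16, adjusted p = 0.0176). RRM2, the small reductase subunit (chr2:10120698-10131419), was at 62.8 and 89.5, 55.7 and 65.8, 83.5 and 79.0, and 53.7 and 50.9 CPM, and passed only in hPFE vs hESC (-0.54, SE 0.18, adjusted p = 0.0437, lost in 9 of 18 alternatives). POLE, the leading-strand polymerase (chr12:132623753-132687365), was at 44.7 and 38.2 CPM in hESC, 55.1 and 58.8 in hDE, 77.2 and 70.4 in hAFE, and 45.9 and 40.6 in hPFE. It was the only fork gene called higher in hDE (0.46, SE 0.14, adjusted p = 0.0319), a call lost in 8 alternatives and turned to -0.11 on TPM, and it fell into hPFE by 0.77. TYMS, the thymidylate synthase, rose from 6.05 and 10.1 CPM in hDE to 16.0 and 15.8 in hAFE. The clamp loader subunits RFC2 and RFC4 fell from hESC to hDE by 0.53 and 0.73. Neither passed from hDE to hAFE on counts (-0.06 and 0.12), while both were called higher in hAFE on TPM. RFC2 stood at 54.0 and 52.6 CPM in hESC and 27.3 and 24.5 in hPFE (-1.04, SE 0.16, adjusted p = 0.00202), and RFC4 at 77.4 and 70.2 against 38.7 and 31.6 (-1.07, SE 0.18, adjusted p = 0.00303). Fork calls kept in all 18 alternatives were 4 of 8 in hDE vs hESC, 3 of 6 in hAFE vs hDE, 0 of 4 in hPFE vs hAFE and 0 of 8 in hPFE vs hESC.

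The G1/S genes held the largest fold changes of the set and did not move together. CCND1, cyclin D1 (chr11:69641087-69654474), was at 74.7 and 77.5 CPM in hESC, 6.59 and 5.58 in hDE, 246 and 153 in hAFE, and 438 and 402 in hPFE. No stages overlapped. It was 12.5-fold lower in hDE than in hESC (log2 fold change -3.65, SE 0.25, adjusted p = 8.23e-05), 32.8-fold higher in hAFE than in hDE (5.04, SE 0.27, adjusted p = 3.29e-05) and 5.52-fold higher in hPFE than in hESC (2.47, SE 0.23, adjusted p = 0.000279), all kept in all 18 alternatives. The further rise from hAFE to hPFE (1.08, SE 0.22, adjusted p = 0.0291) was lost with only the 4 libraries compared and without any one of 5 libraries, hESC or hDE replicate 1 or 2 or hPFE replicate 1; over the alternatives it ranged from 0.76 to 1.45.

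CCND2, cyclin D2 (chr12:4273772-4305350), was at 459 and 474 CPM in hESC, 451 and 359.6 in hDE, 539.9 and 687 in hAFE, and 1015 and 1169 in hPFE. The hESC and hDE levels were close, and hPFE stood above all others (1.23 against hESC, SE 0.18, adjusted p = 0.00165). CCND3 was low throughout, at 11.2 and 12.6, 7.03 and 7.68, 6.28 and 3.58, and 10.2 and 9.60 CPM, and passed in no comparison. Per length, in TPM, the D cyclins changed in make-up: CCND1 gave 19.0% and 19.4% of their sum in hESC, 2.15% and 2.35% in hDE, 40.4% and 25.4% in hAFE, and 39.5% and 34.3% in hPFE. CCND2 was the main D cyclin in every library, from 56.9% in hAFE replicate 1 to 93.1% in hDE replicate 1.

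CDK6, a partner of the D cyclins (chr7:92604921-92836594), was at 35.0 and 39.8 CPM in hESC, 242 and 184 in hDE, 101 and 104 in hAFE, and 363 and 448 in hPFE. No stages overlapped, and the order was the reverse of that of CCND1 in hDE and hAFE. It rose into hDE 5.70-fold (2.51, SE 0.19, adjusted p = 0.000104), fell into hAFE by 1.05 on the log2 scale (SE 0.18, adjusted p = 0.00404; on TPM -0.16 and not called) and rose into hPFE 3.95-fold (1.98, SE 0.18, adjusted p = 0.00233). It was the only one of the 19 genes called in hPFE vs hAFE that was kept in all 18 alternatives.

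The cyclin E genes diverged. CCNE1 (chr19:29811898-29824308) was highest in hESC, at 31.7 and 39.5 CPM, against 12.8 and 13.2 in hDE, 19.4 and 20.3 in hAFE, and 14.6 and 11.1 in hPFE. It was lower than in hESC by 1.45 in hDE (SE 0.20, adjusted p = 0.00119) and by 1.46 in hPFE (SE 0.20, adjusted p = 0.00116). CCNE2 was lowest in hESC, at 5.41 and 4.75 CPM, and higher in hPFE, at 10.1 and 12.8 (1.17, SE 0.24, adjusted p = 0.00645). Their partner CDK2 was at 38.98 and 39.1, 40.6 and 35.6, 60.3 and 48.2, and 60.8 and 52.7 CPM, and rose from hDE to hAFE by 0.51 (SE 0.16, adjusted p = 0.0434), a call lost in 8 alternatives.

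Among the inhibitors, CDKN1B, which encodes p27 (chr12:12715058-12722371), was at 23.2 and 21.9 CPM in hESC, 61.5 and 59.0 in hDE, 30.3 and 30.3 in hAFE, and 31.4 and 29.4 in hPFE. The hDE libraries stood 2.67-fold above hESC (1.42, SE 0.13, adjusted p = 0.000201), and hAFE was lower than hDE by 0.99 (SE 0.13, adjusted p = 0.00118; on TPM -0.11 and not called). CDKN2A, whose gene encodes p16 and p14ARF (chr9:21967753-21995301), was close to 0 in 6 libraries, with 1 and 3 counts in hESC, 7 and 7 in hDE, and 6 and 4 in hAFE. In hPFE it reached 62 and 274 counts, or 3.76 and 19.8 CPM, against at most 0.623 CPM elsewhere, with hPFE replicate 2 the higher. It was called higher in hPFE than in hAFE (adjusted p = 0.0172, lost with only the 4 libraries compared, on TPM and in voom) and than in hESC (adjusted p = 0.0017, kept in all 18 alternatives). Gene-level counts do not separate its 2 products, and no source used here says whether the counting used strand, which would keep apart the antisense gene of this locus.

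**Figure D4:**
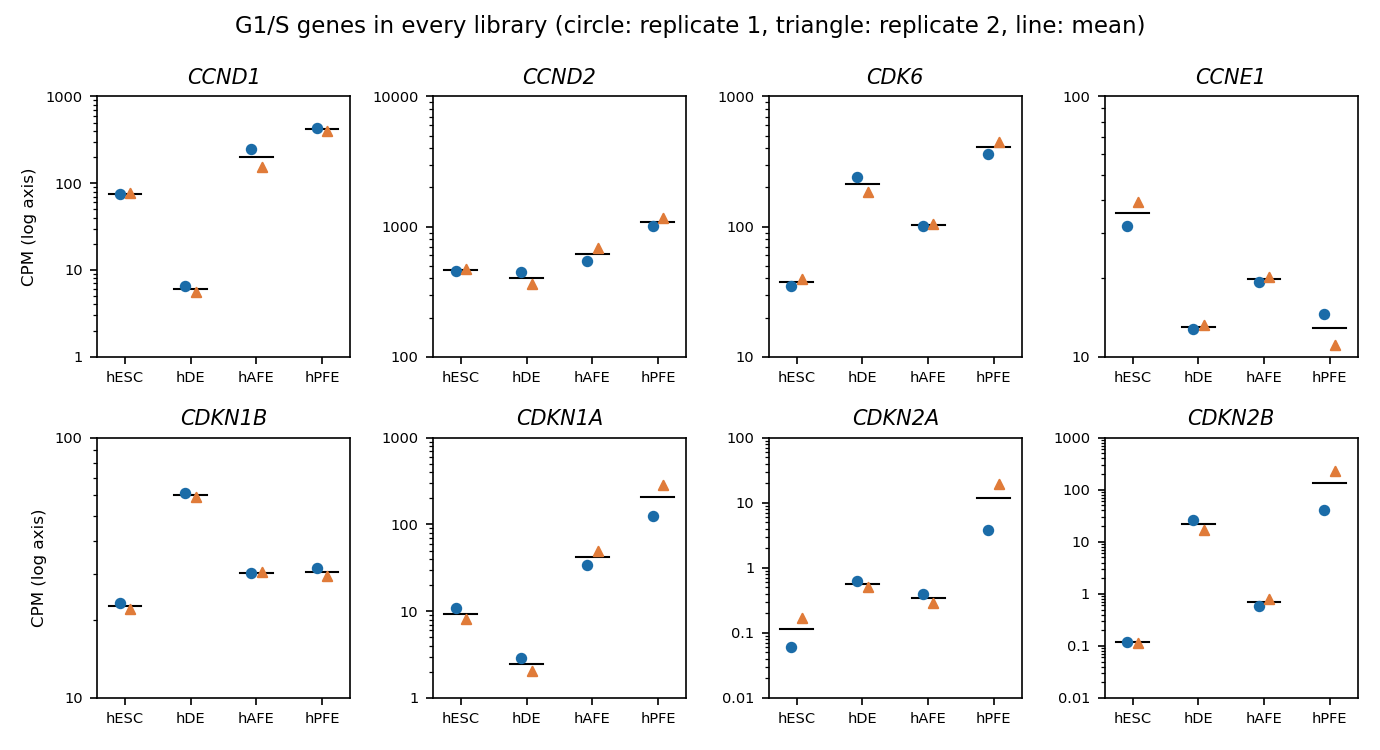
CPM (log axes, each with its own range) of 8 G1/S genes in the 8 libraries, with a line at the stage mean. CCND1 is lowest and CDKN1B highest in hDE, and CDKN1A, CDKN2A and CDKN2B are highest in hPFE, more so in replicate 2. For CDKN1B this holds on CPM only, as its mean TPM was 7.775 in hDE and 8.745 in hPFE.

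The inhibitor genes outside the set, in a list of 25 other G1/S regulators, included 2 that rose strongly in hPFE. CDKN1A, which encodes p21 (chr6:36676460-36687339), was at 10.8 and 8.03 CPM in hESC, 2.85 and 2.03 in hDE, 34.4 and 49.5 in hAFE, and 127 and 285 in hPFE, and passed in all 4 comparisons, with 2.29 (SE 0.38, adjusted p = 0.0154) from hAFE to hPFE. CDKN2B, which encodes p15 and lies beside CDKN2A (chr9:22002903-22009363), was at 2 and 2 counts in hESC, 26.8 and 17.2 CPM in hDE, 0.595 and 0.804 CPM in hAFE, and 40.2 and 234 CPM in hPFE, and also passed in all 4. CDKN1C, which encodes p57, was at 3.90 and 2.94 CPM in hESC and between 14.5 and 23.7 CPM in the later libraries (2.47 from hESC to hDE, SE 0.30, adjusted p = 0.000719). As counts over the list, 7 of 25 rose and 7 fell in hDE, 8 rose and 5 fell in hAFE, 3 rose and 1 fell in hPFE vs hAFE, and 9 were higher and 7 lower in hPFE than in hESC. In hDE that is 28% in each direction, against 20.3% and 21.6% of all genes; in hAFE 32% and 20% against 15.0% and 15.2%; in hPFE vs hAFE 12% and 4% against 4.77% and 2.71%; and in hPFE vs hESC 36% and 28% against 21.6% and 23.3%.

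The E2F genes differed among themselves. E2F1 (chr20:33675683-33686404) was at 24.0 and 26.7 CPM in hESC, 10.7 and 10.7 in hDE, 26.6 and 22.2 in hAFE, and 19.4 and 12.3 in hPFE, falling by 1.24 and then rising by 1.19 (SE 0.24 each, adjusted p = 0.0051 and 0.00834). E2F2 (chr1:23506430-23531220) was at 8.83 and 6.27, 4.45 and 4.27, 20.4 and 20.8, and 12.4 and 14.3 CPM, with its highest level in hAFE (2.24 above hDE, SE 0.24, adjusted p = 0.000569). E2F3 stayed between 40.3 and 61.4 CPM in all 8 libraries and passed in no comparison. G1/S calls kept in all 18 alternatives were 5 of 6 in hDE vs hESC, 2 of 8 in hAFE vs hDE (CCND1 and E2F2), 1 of 4 in hPFE vs hAFE and 5 of 10 in hPFE vs hESC.

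Of the 20 mitotic genes, 7 fell in hDE (35%) and 2 rose in hAFE (10%), against 21.6% and 15.0% of all genes. In hPFE vs hAFE 0 passed, which is near the share of all genes, where 2.71% fell and 4.77% rose. In that comparison edgeR gave 1 mitotic gene with an unadjusted p below 0.05. DESeq2, limma on TPM and voom also called 0 there, but edgeR called 3 without hPFE replicate 1, with 13 of the 20 at an unadjusted p below 0.05. The median log2 fold change of the mitotic genes in this step was -0.13 with all libraries, -0.49 without hPFE replicate 1, and 0.15 without hPFE replicate 2, so its sign rests on which hPFE library is used. MKI67 (chr10:128096659-128126385) was at 128 and 109.5 CPM in hESC, 147 and 139 in hDE, 192 and 191 in hAFE, and 203 and 128 in hPFE, and passed in no comparison (adjusted p = 0.341, 0.176, 0.572 and 0.102). CDK1, the kinase of mitotic entry (chr10:60778331-60794852), was at 97.9 and 98.4, 83.5 and 63.1, 92.5 and 81.6, and 96.6 and 69.7 CPM, and passed in none either (adjusted p = 0.122, 0.376, 0.871 and 0.351). Its partner CCNB1, cyclin B1 (chr5:69167010-69178245), was at 191 and 232 CPM in hESC, 135 and 122 in hDE, 157 and 140.5 in hAFE, and 166 and 124 in hPFE. It fell into hDE by 0.72 (SE 0.18, adjusted p = 0.0152). AURKA, a spindle pole kinase (chr20:56369389-56392337), was at 74.1 and 73.4, 75.8 and 63.8, 47.2 and 47.6, and 54.2 and 34.3 CPM, and passed only in hPFE vs hESC (-0.73, SE 0.21, adjusted p = 0.0235), a call lost in 4 alternatives.

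TOP2A, the topoisomerase of chromosome segregation (chr17:40388516-40417950), was at 598 and 657 CPM in hESC, 313 and 253 in hDE, 456 and 457 in hAFE, and 507 and 317 in hPFE. Both hDE libraries were below all others, the nearest being hPFE replicate 2, and it fell into hDE by 1.15 (SE 0.23, adjusted p = 0.00579). CENPF, a kinetochore protein (chr1:214603195-214664588), had the same dip, at 531 and 553, 332 and 253, 607 and 593, and 618 and 418 CPM, and rose into hAFE by 1.04 (SE 0.21, adjusted p = 0.00913). KIF11 (chr10:92593286-92655395) was the other mitotic gene to rise there, from 101 and 94.4 CPM to 130.0 and 149.6 (0.52, SE 0.15, adjusted p = 0.0364, lost in 6 alternatives). CENPE, a kinetochore motor, fell into hDE from 162 and 188 CPM to 89.7 and 77.9 (-1.06, SE 0.26, adjusted p = 0.0144).

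The spindle checkpoint kinases were lower in every later library than in hESC. BUB1 (chr2:110637698-110678114) was at 263 and 283 CPM in hESC, 152 and 126 in hDE, 98.5 and 84.4 in hAFE, and 125 and 81.4 in hPFE. Its lowest CPM were in the foregut stages (-1.40 in hPFE, SE 0.22, adjusted p = 0.00207, kept in all 18 alternatives). Its mean TPM was lowest in hDE, at 15.1 against 18.5 in hAFE. BUB1B (chr15:40161023-40221136) was at 188 and 199, 89.2 and 84.3, 105 and 105, and 120.2 and 73.4 CPM, and fell into hDE by 1.16 (SE 0.22, adjusted p = 0.00453, kept in all 18). Their hPFE libraries lay on both sides of the hAFE levels. CDC20, whose promoter is printed above, was at 106 and 108 CPM in hESC, 73.0 and 71.3 in hAFE, and 78.8 and 45.2 in hPFE (-0.79 against hESC, SE 0.24, adjusted p = 0.0301). GTSE1, a microtubule-bound protein, went the other way in level, at 22.0 and 20.5 CPM in hESC and 36.5 and 32.7 in hDE, without passing (0.71, SE 0.27, adjusted p = 0.0703). In hPFE vs hESC, 9 of 20 mitotic genes were lower and 0 higher (median -0.49), which became a median of 0.10 on TPM, where all genes had 0.36. It was -0.79 without hPFE replicate 1 and -0.24 without hPFE replicate 2. Mitotic calls kept in all 18 alternatives were 1 of 7 in hDE vs hESC, 0 of 2 in hAFE vs hDE and 1 of 9 in hPFE vs hESC.

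The roles also differed in how the 2 hPFE libraries compared. On CPM, all 20 mitotic genes were higher in hPFE replicate 1 than in replicate 2, with a median ratio of 1.56, while 8 of 17 origin genes (median ratio 0.967), 8 of 11 fork genes (1.06) and 6 of 12 G1/S genes were. The same side was seen in 48 of 53 mitotic genes outside the set (1.41). On deposited TPM, 13 of the 20 mitotic genes were higher in replicate 1 (median ratio 1.07), against 0 of 17 origin genes (0.652), 0 of 11 fork genes (0.677) and 22 of 53 outside mitotic genes (0.949), so on that scale the mitotic genes were not all on one side. TPM is not rescaled between libraries, and the ratio of every role was lower on it than on CPM. The mitotic median ratio was above those of the other roles on both scales. The difference between the roles was not tested. In hDE, 19 of 20 mitotic genes were higher in replicate 1 (1.17), in hAFE 12 of 20 and in hESC 9 of 20. Replicate 2 of hPFE had the higher CDKN1A (285 against 127 CPM), CDKN2B (234 against 40.2) and CDKN2A (19.8 against 3.76), the lower mesenchymal sum (269 against 1533) and a mitochondrial ribosomal RNA share of 18.4% against 14.3%. Its share of 7SL RNA, a small structural RNA, was 3.79% against 11.4%. COL3A1 was at 1232 CPM in replicate 1 and 29.7 in replicate 2; 5 of the 7 mesenchymal markers tested (10 listed) were higher in hPFE than in hAFE, and PRRX1, DCN and POSTN were at 0 in one hAFE library each. The part of any of these in the hPFE values was not tested.

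**Figure D5:**
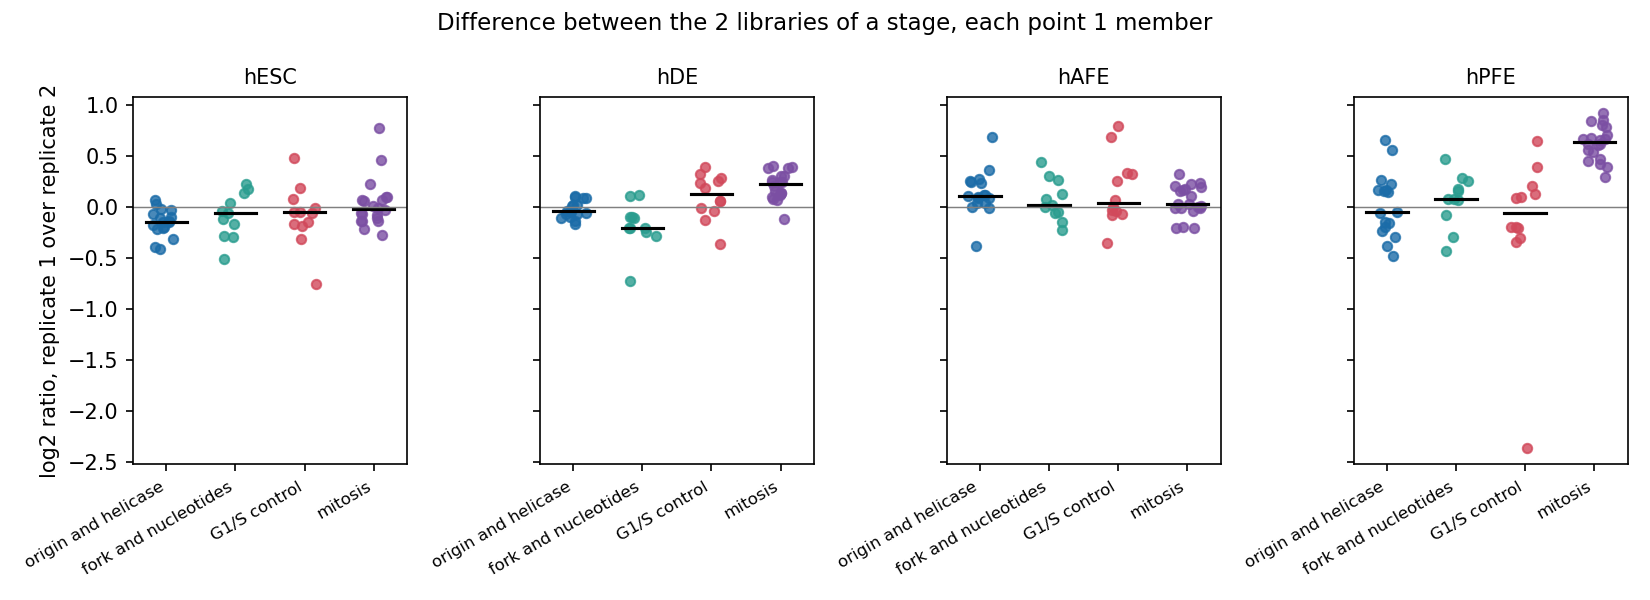
Log2 ratio of CPM in replicate 1 over replicate 2 within each stage (vertical axis), 1 point per gene, by role, with a line at the median; in hPFE all 20 mitotic genes lie above 0 (13 of 20 do on TPM), and the lowest point, CDKN2A, lies 2.36 below 0.

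Genes of the same processes outside the set were counted in the same way, with no test against the members. Of 41 other replication genes, 24 fell and 1 rose in hDE, 17 rose and 1 fell in hAFE, 8 fell and 0 rose in hPFE vs hAFE, and 30 were lower and 0 higher in hPFE than in hESC. That is 58.5% falling in hDE and 41.5% rising in hAFE, against 21.6% and 15.0% of all genes. In hPFE, 19.5% were lower than in hAFE and 73.2% lower than in hESC, against 2.71% and 23.3% of all genes. UHRF1, which brings DNA methylation to new strands, rose 4.61-fold from 19.9 and 18.6 CPM in hDE to 95.7 and 82.0 in hAFE (2.21, SE 0.23, adjusted p = 0.000488). DSCC1, a part of the cohesion clamp loader, was lower in hPFE, at 10.8 and 12.3 CPM, than in hESC, at 44.6 and 45.7 (-1.97, SE 0.17, adjusted p = 0.000211). Of 53 other mitotic genes, 23 fell and 2 rose in hDE, 11 rose and 1 fell in hAFE, 3 fell and 0 rose in hPFE vs hAFE, and 17 were lower and 0 higher in hPFE than in hESC. That is 43.4% falling in hDE, against 21.6% of all genes. In hAFE 20.8% rose, against 15.0% of all genes. In hPFE, 5.66% were lower than in hAFE and 32.1% lower than in hESC, against 2.71% and 23.3%. The opposite directions held fewer of these genes than of all genes. They were 3.77% rising in hDE against 20.3%, and 1.89% falling in hAFE against 15.2%. In hPFE, 0% were higher than in hAFE and 0% higher than in hESC, against 4.77% and 21.6%. KIF15, a spindle motor, was at 66.9 and 72.5 CPM in hESC, 32.6 and 33.1 in hDE, and 97.8 and 81.9 in hAFE (1.45 above hDE, SE 0.19, adjusted p = 0.00137).

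Over the 4 stages, the lowest mean CPM fell in hDE for 32 of the 60 genes, in hPFE for 18, in hESC for 7 and in hAFE for 3. The highest mean CPM fell in hESC for 32, in hAFE for 16, in hDE for 6 and in hPFE for 6. On TPM, none of the genes lowest in hPFE kept that place. For example, mean TPM was 20.3 in hDE and 43.6 in hPFE for MCM3, and 13.0 and 26.6 for CCNA2. The same count was not made over all genes. Summed over the origin genes, the libraries gave 2210 and 2444 CPM in hESC, 1111 and 1147 in hDE, 2068 and 1889 in hAFE, and 1189 and 1150 in hPFE. On TPM the origin sums were 145 and 151 in hDE but 288 and 419 in hPFE, so the closeness of those stages on CPM did not hold on TPM. The G1/S genes summed to 764 and 796 CPM in hESC, 906 and 740 in hDE, 1116 and 1156 in hAFE, and 2019 and 2228 in hPFE. The mitotic genes summed to 2991 and 3153, 2055 and 1752, 2544 and 2472, and 2737 and 1801 CPM, where hPFE replicate 2 lay within the hDE libraries. On TPM they summed to 241 and 218 in hDE and to 536 and 532 in hPFE, where both hPFE libraries stood above hDE.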

How the data were processed

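RNA-seq tables of 8 libraries (4 stages, 2 each) were analysed. The deposited tables hold RSEM expected counts and TPM per gene, per the file headers, with effective lengths and posterior standard deviations as other columns. The submitters' processing notes also name DESeq2 and the build hg38; versions and the aligner are not given in the sources used here. Strand-specific, paired-end libraries were made from ribosome-depleted total RNA, per the labels' protocols. Each table had 59526 rows, of which 58780 were genes in GENCODE 29 (source of symbols and positions) and 746 others held 0 counts.

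The deposited estimated counts, rounded to integers, entered edgeR 4.0.16 (R 4.3.3); 17446 genes passed filterByExpr. The quasi-likelihood test used TMM scaling, a term for each of the 4 stages, 4 residual degrees of freedom and Benjamini-Hochberg adjustment over all genes, with a threshold of 0.05. "Rose", "fell" and "called" refer to that threshold. The SE is the absolute log2 fold change divided by the square root of the F statistic. CPM are scaled by TMM. Shares and ratios between genes were taken in TPM; sums over lists are in CPM unless TPM is named. Promoter matches were counted, not tested. Recovery by the edgeR fit was checked in simulated counts.

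The 60 genes, the lists and the tests were chosen with earlier results of these data known. Genes were named from a fixed list of landmark genes and from the largest called changes (up to 3 per role and comparison, up to 2 per direction and outside list) among genes that reached 5 CPM in the higher stage; other members were named freely. The 18 alternatives changed the scaling (RLE; effective length offsets; small structural, mitochondrial and histone RNA removed first), the tool (DESeq2 1.42.0; limma 3.58.1 on log2(TPM + 1), with no further scaling; voom with stage weights), the filter (none; 1 CPM in 2 libraries), the design (a replicate block; the 4 libraries of the comparison alone) or left out each of the 8 libraries, in which case the stage's lone library is assumed to vary like the others. The libraries of a stage differed beyond sampling noise and were counted as 2. Antisense and overlapping genes could share counts where strand was not used.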

Additional observations from a re-analysis of the deposited data

How the results depend on the processing

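Of the 122 calls over 60 genes and 4 comparisons, 40 were kept in all 18 alternatives and 82 were lost in at least 1; 59 of 118 results that did not pass were called in at least 1. With only the 4 libraries compared, hDE vs hESC had 7 higher, hAFE vs hDE 5 lower, and hPFE vs hAFE 1 higher and 0 lower. Over all genes these fits called 30.3% higher, 17.3% lower, and 0.29% higher and 0.038% lower, in that order. On log2(TPM + 1), hDE vs hESC had 2 higher, hAFE vs hDE 48 higher and 0 lower, hPFE vs hAFE 2 higher and 0 lower, and hPFE vs hESC 4 lower; the median of all genes moved to -0.27, 0.50, 0.14 and 0.36, against -0.01, 0.01, -0.03 and 0.02 on counts. With no filter hAFE vs hDE had 4 lower, and with voom 4 lower, and hPFE vs hAFE 2 higher and 3 lower. The shares of all genes were 9.17% lower with no filter, and with voom 17.1% lower, 2.06% higher and 0.50% lower, in that order. Results that reversed did so on TPM: in hPFE vs hESC MCM2 (0.0298), MCM7 (0.12), ORC6 (0.23), PCNA (0.0811), LIG1 (0.24), CCNA2 (0.00937) and CCNB1 (0.13), and in hDE vs hESC POLE (-0.11). Relative to the median of all genes on TPM, the median of each role except G1/S control stayed below it in hPFE vs hESC, by 0.64 for origin, 0.36 for fork and 0.27 for mitotic genes. The 150-base window gave E2F matches in 4 origin, 6 fork, 3 G1/S and 0 mitotic genes, and in 1.82% of all promoters.

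Leaving out 1 library gave 2 to 7 higher and 21 to 37 lower in hDE vs hESC, 12 to 32 higher and 2 to 5 lower in hAFE vs hDE, 2 to 4 higher and 3 to 16 lower in hPFE vs hAFE, and 4 to 9 higher and 15 to 34 lower in hPFE vs hESC. The 21 came without hDE replicate 2, the 12 without either hDE library, and the 7 higher in hDE vs hESC and 5 lower in hAFE vs hDE without either hPFE library. In hDE vs hESC 2 were higher without any one hESC or hDE library, and in hPFE vs hAFE 2 were higher without any one of these. The cause was not tested.

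With a replicate block the counts were 4 higher and 32 lower, 22 and 2, 3 and 11, and 8 and 30, in the order of the comparisons. The deviations of same-numbered libraries correlated at -0.041 to 0.0607, so no effect shared by a replicate number was visible over genes. These correlations cannot show whether same-numbered libraries were prepared together. With 2 libraries against 2 an exact permutation test cannot give a two-sided p below 0.333, so no single value could pass one. Depth limits CDKN2A and CDKN2B in hESC, at 1 to 3 counts per library.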

Other observations

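MYC and MYCN, transcription factors that promote growth and cell cycle entry, had different courses. MYC was at 29.2 and 23.7 CPM in hESC, 33.5 and 39.8 in hDE, 3.90 and 5.996 in hAFE, and 2.79 and 5.63 in hPFE, and fell from hDE to hAFE by 2.89 on the log2 scale (SE 0.35, adjusted p = 0.00102). MYCN (chr2:15940564-15947007) was at 64.3 and 82.0 CPM in hESC, 6.05 and 5.50 in hDE, 77.0 and 51.4 in hAFE, and 47.2 and 43.4 in hPFE. It was 12.7-fold lower in hDE than in hESC (SE 0.24 on the log2 scale, adjusted p = 6.87e-05) and 11.1-fold higher in hAFE than in hDE (SE 0.24, adjusted p = 8.87e-05). CDC25A, the phosphatase that activates CDK2, was at 82.9 and 102 CPM in hESC, 63.4 and 51.3 in hDE, 85.9 and 67.6 in hAFE, and 34.5 and 36.2 in hPFE. On CPM, hPFE was its lowest stage (-1.12 from hAFE, SE 0.18, adjusted p = 0.0143).

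Among the other replication and mitotic genes, a few went against the majority in hDE. WEE1, the kinase that holds CDK1 inactive, rose from hESC to hDE by 0.73 on the log2 scale (SE 0.21, adjusted p = 0.0251), CKAP2L, a spindle protein, by 0.95 (SE 0.25, adjusted p = 0.0185) and MCMBP, which binds MCM subunits, by 0.52 (SE 0.14, adjusted p = 0.0228). Those with larger falls in that step included the condensin subunit NCAPD2 (-1.20) and securin, PTTG1 (-1.15). From hDE to hAFE the kinetochore gene CENPW rose by 1.12, while CKAP2L fell by 0.84 and the origin recognition gene ORC2 by 0.81. From hAFE to hPFE the helicase RECQL4 (-1.22), the fork protein CLSPN (-0.94), the transcription factor MYBL2 (-0.90) and the CDK1 inhibitor kinase PKMYT1 (-0.88) fell. RECQL4 (-1.54), the kinetochore gene CENPM (-1.56) and the spindle gene HMMR (-1.36) were lower in hPFE than in hESC.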
